A study of Mus musculus with 16 samples.

Results

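The genes described here are 10 antioxidant and glutathione genes linked to the transcription factor NRF2, followed in macrophages across mouse number, duplicate number, Ndst1 genotype and lipid loading. They were chosen by name, as every probe on the array whose annotated symbol was Nqo1, Hmox1, Gclm, Gclc, Srxn1, Slc7a11, Txnrd1, Gsta3, Gstm1 or Prdx1, and they are 10 of the 16593 genes named on the array. The cells were macrophages grown from the bone marrow of C57BL6 mice aged 12 weeks, with macrophage colony stimulating factor 1 at 20 ng/ml, and their RNA was measured on single-colour Illumina arrays. All mice carried the floxed Ndst1 allele (Ndst1f/f). Ndst1-deficient mice also carried LysMCre, a Cre recombinase expressed from the lysozyme 2 locus in myeloid cells, and mice labelled wild-type did not. Ndst1 encodes an enzyme that sulfates heparan sulfate chains. The 4 groups were Ndst1-deficient macrophages given 50 µg/ml aggregated LDL (agLDL) for 24 hours, untreated Ndst1-deficient macrophages, wild-type macrophages given the same agLDL, and untreated wild-type macrophages, all in medium with lipoprotein-deficient serum. Each group held 4 arrays from 2 mice, with 2 duplicate arrays per mouse, and the same 4 mice gave both treatments. An array is named by its mouse and duplicate number, 1.1, 1.2, 2.1 or 2.2, and each number occurs once in every group.

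NRF2, encoded by Nfe2l2, is held low by KEAP1, which hands it to the proteasome. Oxidants and electrophiles release it, and it then binds antioxidant response elements with small MAF proteins, at sites that BACH1 can occupy as a repressor. Its targets make and use glutathione, reduce peroxides and quinones, and break down heme, and macrophages draw on them during inflammation and lipid uptake.

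The 10 genes had 16 probes. Signals were background-corrected, normalized between arrays and put on a log2 scale, and only probes detected (detection p under 0.01) on 4 or more arrays out of 16 were tested. That left 11 member probes of 8 genes among 10224 probes. The probes of Gclc (ILMN_2608016), the catalytic subunit of glutamate-cysteine ligase, and of Txnrd1 (ILMN_2484465), the cytosolic thioredoxin reductase, were detected on 0 arrays, as were the second probes of Nqo1 (ILMN_2766386) and Gsta3 (ILMN_3138685). The second probe of Prdx1 (ILMN_2989706) was detected on 2 arrays. These 5 probes have no tested difference. Slc7a11 passed the filter with 5 arrays, 4 of them numbered 2.2, so it could enter the tests only by being higher there. Each array detected between 36.0% and 39.4% of its probes, and the raw median signal lay between 148 and 161. No probe of Ndst1 was analysed here, so the target gene does not check the genotype labels. Macrophage markers were present, with 6 of 7 detected on all 16 arrays. Of the neutrophil and granulocyte precursor markers, 7 of 8 were detected on all 16 arrays, as was Cd79b, 1 of 4 B cell markers with a probe. None of the dendritic cell, T and NK cell, mast cell or erythroid markers with a probe was detected on any array. All arrays of a genotype label lay on 1 slide, and each number kept the same pair of chip positions on both slides. Genotype and slide, number and chip position, and agLDL and chip position therefore cannot be told apart. Sets of 4 arrays come from 1 mouse, so the spread behind p-values over arrays is partly technical.

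Promoter sequence is shown for Srxn1, Gsta3 and Gclm, which differed between duplicate or mouse numbers, and for Prdx1, which was called in neither comparison, to show how the known NRF2-type letters lie in each. The windows run from 250 bases before to 50 bases after the RefSeq start, on the plus strand of GRCm38.p6, at chr2:152105274-152105573 for Srxn1, chr1:21240335-21240634 for Gsta3, chr3:122245307-122245606 for Gclm and chr4:116685349-116685648 for Prdx1. Capitals mark matches to the antioxidant response element core TGACNNNGC or to the AP-1 type sequence TGAGTCA on either strand.
Srxn1: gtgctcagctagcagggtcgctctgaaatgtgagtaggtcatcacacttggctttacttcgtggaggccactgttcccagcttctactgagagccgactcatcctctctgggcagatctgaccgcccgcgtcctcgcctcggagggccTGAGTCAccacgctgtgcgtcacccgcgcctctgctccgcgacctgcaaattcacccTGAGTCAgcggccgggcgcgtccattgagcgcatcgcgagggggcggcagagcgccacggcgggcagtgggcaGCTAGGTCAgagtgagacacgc
Gsta3: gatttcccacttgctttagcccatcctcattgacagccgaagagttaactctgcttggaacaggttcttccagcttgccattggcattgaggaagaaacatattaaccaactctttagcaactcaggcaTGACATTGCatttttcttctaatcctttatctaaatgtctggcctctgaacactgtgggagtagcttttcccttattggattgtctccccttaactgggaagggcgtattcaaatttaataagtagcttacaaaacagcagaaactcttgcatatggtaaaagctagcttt
Gclm: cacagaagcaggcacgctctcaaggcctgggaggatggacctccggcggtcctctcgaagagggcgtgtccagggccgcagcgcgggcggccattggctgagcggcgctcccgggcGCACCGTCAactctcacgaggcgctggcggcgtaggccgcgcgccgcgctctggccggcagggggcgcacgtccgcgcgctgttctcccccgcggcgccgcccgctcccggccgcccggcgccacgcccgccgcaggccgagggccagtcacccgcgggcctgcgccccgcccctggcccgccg
Prdx1: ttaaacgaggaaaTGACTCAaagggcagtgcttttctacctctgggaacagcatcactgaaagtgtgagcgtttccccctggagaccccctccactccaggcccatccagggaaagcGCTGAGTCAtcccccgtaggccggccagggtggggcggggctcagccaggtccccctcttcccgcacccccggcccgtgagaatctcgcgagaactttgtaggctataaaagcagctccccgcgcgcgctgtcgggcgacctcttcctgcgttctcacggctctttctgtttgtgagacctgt
In Srxn1, TGAGTCA begins at -102 and again at -45, and the core lies on the minus strand as GCTAGGTCA from 29, counting the first transcribed base as 1. Gsta3 holds TGACATTGC from -121 and Gclm holds GCACCGTCA, on the minus strand, from -134. In Prdx1 the minus-strand core GCTGAGTCA from -133 overlaps a TGAGTCA that begins at -131, and TGACTCA, the same letters read on the minus strand, begins at -237. RefSeq windows were found for 8 of the 10 genes, as 11 windows, and not for Hmox1 and Gclc. The core was in 5 of the 11 windows, with Txnrd1 (GCTTTGTCA from -92) as the fifth, and in 12.39% of 32851 mouse promoter windows. TGAGTCA was in 2 of the 11 and in 5.202% of all windows. The windows of Gstm1, Nqo1 and Slc7a11, which were also called between numbers, held neither sequence. These matches describe letters only, and their use was not measured.

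Gsta3, the brighter Gstm1 probe and Gclm, and to a lesser size Nqo1, were higher with mouse number 2 than with mouse number 1. Of the 11 member probes, 6 were higher (limma, Benjamini-Hochberg adjusted p under 0.05) and 0 lower, where 16.3% of all tested probes were higher and 30.9% differed in either direction. For 2 member probes, Gsta3 and the brighter Gstm1 probe, the 8 arrays of each mouse number did not overlap, as held for 3.83% of all probes. The median difference was 0.23 over the 11 member probes and 0.01 over all probes (log2). Slc7a11 counts among the 6 and in the median, having entered as described above. Mouse number 2 is 1 animal of each genotype label, so 2 mice stand on each side.

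Gsta3 encodes an alpha-class glutathione transferase, which joins glutathione to electrophiles. Its probe ILMN_1241437 read 8.53, 8.11, 8.18 and 8.23 on the arrays numbered 2.2 and 7.69, 7.45, 7.29 and 7.26 on those numbered 2.1, against 7.04, 6.29, 6.93 and 6.73 on 1.2 and 6.14, 6.48, 6.26 and 5.63 on 1.1 (log2 signal). The 8 arrays of mouse number 2 all lay above the 8 of mouse number 1, and 1 array numbered 1.1 did not detect the probe. By mouse, the mean was 7.95 and 7.74 in the Ndst1-deficient and wild-type mice numbered 2, against 6.49 and 6.38 in those numbered 1. The difference was 1.41 ± 0.12 on the log2 scale (SE), or 2.65-fold, with a limma adjusted p of 1.45e-06. The adjusted p was 0.000399 when the 4 mouse means were tested in place of the arrays. That fit, also used for other members below, has 1 residual degree of freedom per probe. Its p-values therefore lean on the spread that limma pools over all probes. For Gsta3 the difference was 0.75 without background correction and 1.60 with the series-matrix values.

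Gstm1 encodes a mu-class glutathione transferase. Its probe ILMN_1228233 read 10.19, 9.84, 10.41 and 10.49 on 2.2 and 10.17, 10.15, 10.30 and 10.38 on 2.1, against 9.34, 9.07, 9.81 and 9.44 on 1.2 and 9.41, 9.19, 9.73 and 9.56 on 1.1. Every array of mouse number 2 was above every array of mouse number 1, and the difference was 0.80 ± 0.07 (limma adjusted p = 1.83e-06, and 0.00210 over the 4 mouse means). The dimmer Gstm1 probe ILMN_2626491, detected on 10 arrays, differed by only 0.08 ± 0.15 (limma adjusted p = 0.747), so the 2 probes of this gene disagree. Glutathione transferases of a class are close in sequence, and whether either probe also binds a relative was not tested.

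Gclm encodes the modifier subunit of glutamate-cysteine ligase, which catalyses the rate-limiting step of glutathione synthesis. Its probe ILMN_1256354 read 10.67, 10.74, 10.74 and 10.77 on 2.2 and 10.51, 10.53, 10.43 and 10.13 on 2.1, against 10.09, 9.92, 10.11 and 10.15 on 1.2 and 10.08, 10.08, 9.83 and 9.91 on 1.1. In all 8 pairs of arrays with the same group and duplicate number, mouse number 2 was higher, and only the 2.1 array of untreated wild-type cells reached down into the range of mouse number 1. The difference was 0.54 ± 0.07 (limma adjusted p = 8.13e-05, and 0.00691 over the 4 mouse means).

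Nqo1 encodes a quinone reductase that uses NADPH or NADH. Its probe ILMN_2726371 was dim, with detection on 8 of 8 arrays for mouse number 2 and 5 of 8 for mouse number 1. It read 6.72, 6.19, 6.42 and 6.91 on 2.2 and 6.50, 6.14, 6.19 and 6.24 on 2.1, against 6.48, 6.08, 6.13 and 6.54 on 1.2 and 5.57, 5.70, 5.94 and 5.64 on 1.1. The ranges overlapped, the 8 matched pairs were all higher in mouse number 2, and the difference was 0.40 ± 0.10 (limma adjusted p = 0.00617). Near background such differences are compressed by the offset added before the log, and without background correction the Nqo1 difference was 0.15.

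**Figure D1:**
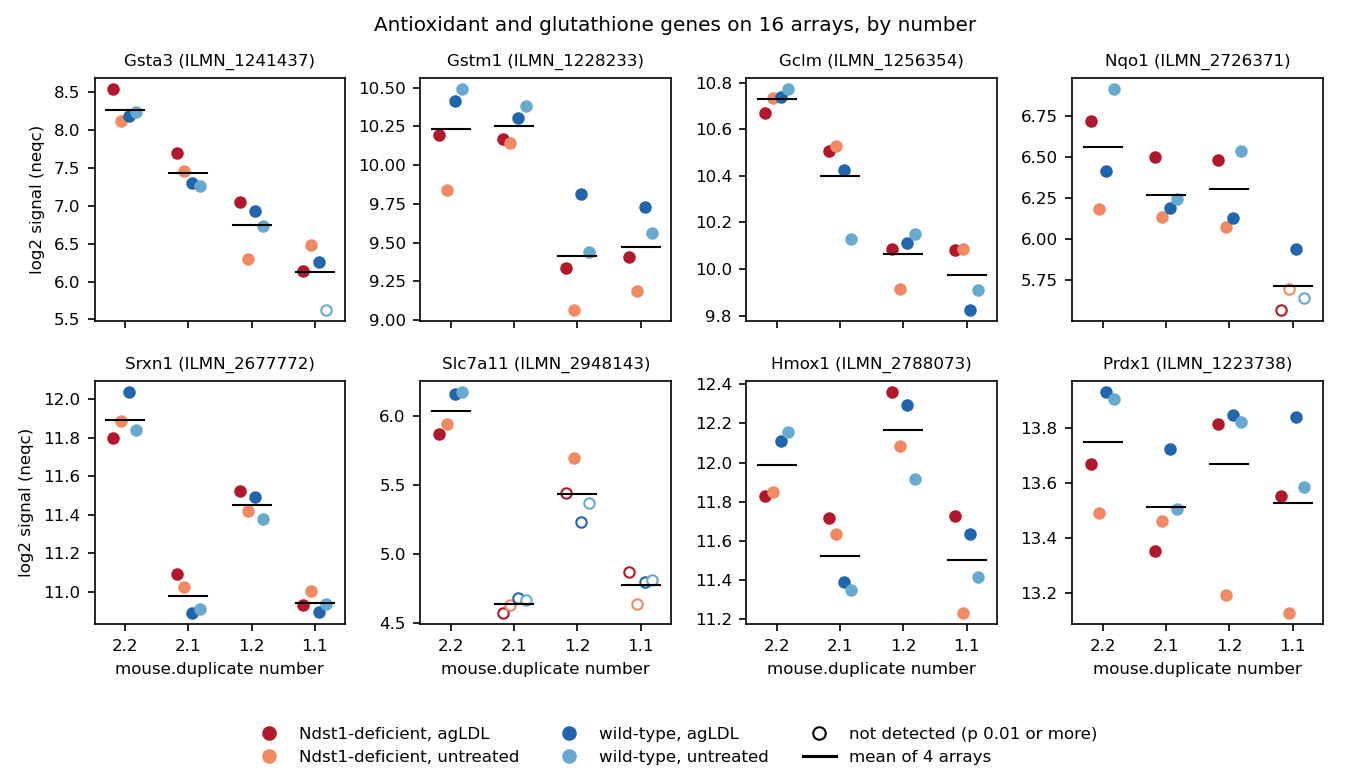
Log2 signal (vertical axis, scaled separately for each gene) of the best detected probe of 8 genes on each of the 16 arrays, by mouse and duplicate number (horizontal axis). Colours give the group, open circles mark arrays that did not detect the probe, and the black line is the mean of 4 arrays. Gsta3 and Gstm1 separate mouse number 2 from 1, whereas Srxn1 and Hmox1 separate duplicate 2 from duplicate 1 within both mouse numbers.

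Among the remaining probes, 1 of the 3 Srxn1 probes was called between mouse numbers (ILMN_2677772, 0.24 ± 0.06, limma adjusted p = 0.00663), and its call was lost over the 4 mouse means (adjusted p = 0.0749). The other Srxn1 probes differed by 0.10 ± 0.06 and 0.03 ± 0.05. Slc7a11, which passed the filter only through its arrays numbered 2.2, was called at 0.23 ± 0.08 (limma adjusted p = 0.0374). That call was lost in 17 of 24 other settings. Hmox1 differed by -0.08, with a 95% interval of -0.27 to 0.12, and Prdx1 by 0.03, with an interval of -0.13 to 0.19. The summed linear signal of stromal and endothelial marker genes was 789 to 1098 on arrays of mouse number 2, against 2262 to 3138 on those of mouse number 1. Of these 9 markers, 4 were detected on any array and Col1a2, Col3a1, Dcn, Lum and Cdh5 on none. Of the 3 tested, Acta2 was the brightest and differed by -1.66. Its log2 means by number were 9.34 to 11.18, against 5.39 to 7.80 for Sparc and 4.68 to 5.82 for Col1a1. The sum therefore mainly follows Acta2 and does not show a move of the whole list. Col1a1 and Sparc were detected on arrays of mouse number 1 only, so they passed the filter through the side where they were high. Of 7 tested macrophage markers, 3 were higher on mouse number 2 and 1 lower, where 30.9% of all probes differed in either direction. Of the 8 neutrophil and granulocyte precursor markers, 2 were higher on mouse number 2, S100a8 by 0.29 and Ltf by 0.33, where 16.3% of all probes were higher. That list summed to 18702 to 25972 on mouse number 2, against 14750 to 20056 on mouse number 1. The part of these markers in the member differences was not tested, and in such bulk RNA fewer cells of a type cannot be told apart from less RNA per cell.

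Between the duplicate arrays of a mouse, the pattern was led by other members. Srxn1 and Hmox1, with Gsta3, were higher on duplicate 2 than on duplicate 1 in both mouse numbers, whereas neither Gstm1 probe nor Prdx1 was called. For 2.2 against 2.1, 7 of 11 member probes were higher and 0 lower, where 17.1% of all probes were higher and 34.2% differed in either direction. The arrays did not overlap for 7 member probes, as for 36.1% of all probes. For 1.2 against 1.1, 7 of 11 were higher and 0 lower, where 12.5% of all probes were higher and 26.1% differed, and 6 did not overlap, as for 23.5% of all probes. Srxn1 supplies 3 of the probes in each count, and Slc7a11 counts in both after passing the filter through its high arrays. The duplicate arrays are of the same mouse and treatment by their labels.

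Srxn1 encodes sulfiredoxin, which repairs over-oxidized peroxiredoxins. Its best detected probe, ILMN_2677772, read 11.80, 11.89, 12.03 and 11.84 on 2.2 against 11.10, 11.02, 10.89 and 10.91 on 2.1, and 11.53, 11.42, 11.49 and 11.38 on 1.2 against 10.93, 11.01, 10.90 and 10.94 on 1.1. All 8 arrays of duplicate 2 were above all 8 of duplicate 1. The difference was 0.91 ± 0.08 for 2.2 against 2.1 (limma adjusted p = 3.91e-06) and 0.51 ± 0.08 for 1.2 against 1.1 (adjusted p = 0.000516). The probe ILMN_1229994 averaged 8.76 ± 0.08 on 2.2 against 7.66 ± 0.02 on 2.1, and 8.49 ± 0.18 on 1.2 against 7.72 ± 0.13 on 1.1 (SD, 4 arrays each). Its differences were 1.09 ± 0.09 and 0.78 ± 0.09. The probe ILMN_2667346 gave 0.98 ± 0.08 and 0.88 ± 0.08, so all 3 probes of the gene moved the same way in both mouse numbers.

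Hmox1 encodes heme oxygenase 1, which splits heme into biliverdin, iron and carbon monoxide. Its probe ILMN_2788073 read 11.83, 11.85, 12.11 and 12.16 on 2.2 against 11.72, 11.63, 11.39 and 11.35 on 2.1, and 12.36, 12.09, 12.30 and 11.92 on 1.2 against 11.73, 11.23, 11.63 and 11.41 on 1.1. Duplicate 2 was above duplicate 1 in each mouse number with no overlap. The difference was 0.47 ± 0.13 for 2.2 against 2.1 (limma adjusted p = 0.0126) and 0.66 ± 0.13 for 1.2 against 1.1 (adjusted p = 0.00202). The first of these was lost without the agLDL-treated wild-type array 2.1 or the untreated wild-type array 2.2, with adjusted p up to 0.0529.

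Slc7a11 encodes the cystine importer xCT, which feeds cysteine to glutathione synthesis. Its probe ILMN_2948143 was detected on all 4 arrays numbered 2.2, at 5.87, 5.95, 6.16 and 6.17, and on 0 of those numbered 2.1. As a bound, it was at least 1.11-fold higher on 2.2. The probe passed the filter only through those arrays, so no p-value is given for this difference. On 1.2 it was detected on 1 of 4 arrays and on 1.1 on 0 of 4, and no size is given there. The measured means were 6.04 on 2.2 and 4.64 on 2.1, and 5.44 on 1.2 and 4.78 on 1.1.

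Gsta3 also differed between duplicates, by 0.84 ± 0.16 for 2.2 against 2.1 (limma adjusted p = 0.00152) and 0.62 ± 0.16 for 1.2 against 1.1 (adjusted p = 0.0137). The second difference was lost without the agLDL-treated Ndst1-deficient array 1.1 (adjusted p = 0.0566), and without background correction the 2 were 0.54 and 0.25. The Gsta3 means were 8.26 ± 0.19 on 2.2, 7.42 ± 0.20 on 2.1, 6.75 ± 0.33 on 1.2 and 6.13 ± 0.36 on 1.1 (SD, 4 arrays each), and of neighbours in that order only 1.2 and 1.1 overlapped. Gclm was higher on 2.2 than on 2.1 by 0.33 ± 0.10 (adjusted p = 0.0218), a call lost without 1 of 3 wild-type arrays (adjusted p up to 0.0851), and differed by 0.09 ± 0.10 between 1.2 and 1.1. Nqo1 was higher on 1.2 than on 1.1 by 0.59 ± 0.13 (adjusted p = 0.00595), or by 0.20 without background correction, and differed by 0.29 ± 0.13 between 2.2 and 2.1 (adjusted p = 0.114). Macrophage markers summed to 64790 to 68252 on duplicate 2, against 71682 to 79246 on duplicate 1 (linear signal), without overlap. Of 7 tested macrophage markers, 3 were lower and 1 higher for 2.2 against 2.1, where 34.2% of all probes differed. For 1.2 against 1.1, 2 were lower and 1 higher, where 26.1% differed. In that order, the lower ones were Adgre1 (-0.65 and -0.45), Mrc1 (-0.50 and -0.33) and, for 2.2 against 2.1 alone, Itgam (-0.54). The higher one was the scavenger receptor gene Cd36, by 1.22 and 0.97, which was near background and detected on 11 arrays. The B cell marker Cd79b fell by 0.89 and by 0.73. Of the 8 neutrophil and granulocyte precursor markers, 2 were lower for 2.2 against 2.1, Ltf and Ngp, where 34.2% of all probes differed in either direction. For 1.2 against 1.1, 3 were higher, Mpo by 1.39, Elane by 0.90 and Prtn3, where 12.5% of all probes were higher. That list summed to 15183 to 21260 on duplicate 2, against 14750 to 25972 on duplicate 1. The part of these markers in the member differences was not tested.

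**Figure D2:**
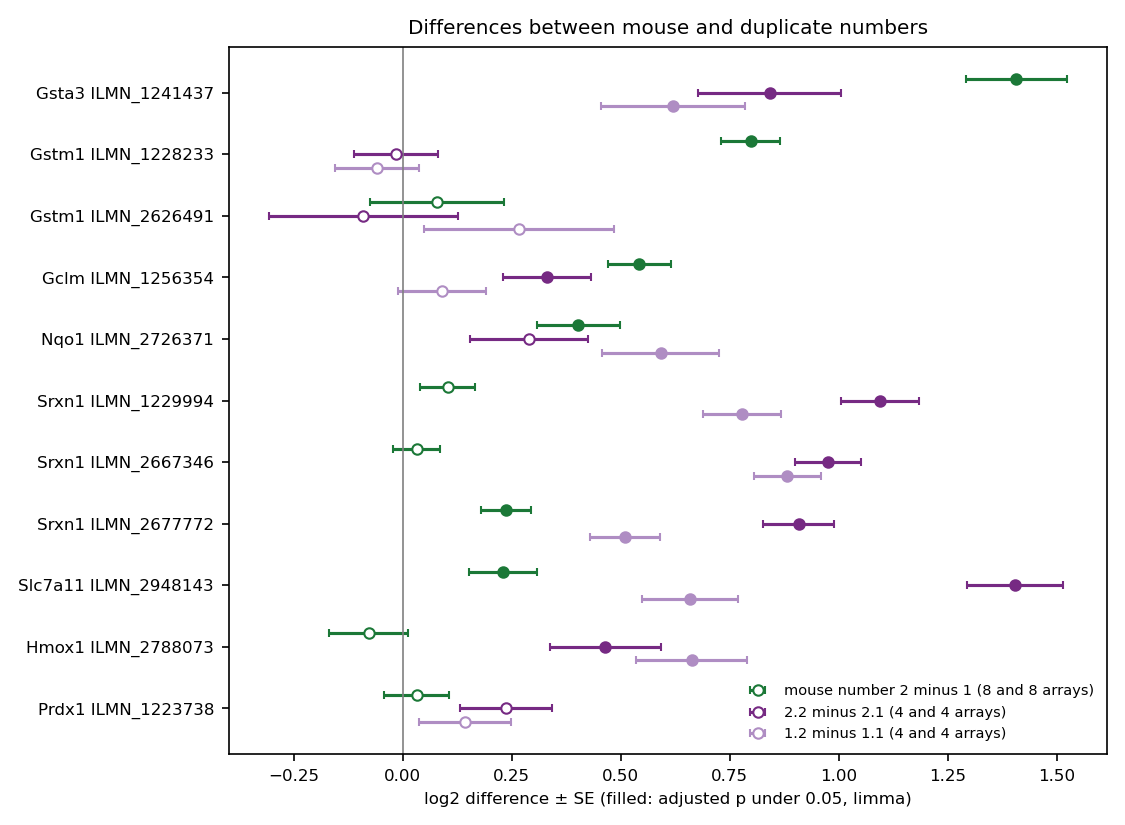
Log2 difference (horizontal axis) with its standard error for the 11 tested member probes (vertical axis), for mouse number 2 minus 1, 2.2 minus 2.1 and 1.2 minus 1.1, from limma fits over 16 arrays. Filled points had an adjusted p under 0.05. Slc7a11 passed the filter only through its arrays numbered 2.2. Gsta3 and the brighter Gstm1 probe have their largest values between mouse numbers, and the 3 Srxn1 probes between duplicates.

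Whether the duplicate difference itself differed between mouse numbers was tested as an interaction. It was called for 0 member probes and for 0.0782% of all probes. Unadjusted p was under 0.05 for 3 member probes and for 7.97% of all probes. These were 2 Srxn1 probes, with ILMN_2677772 at 0.40 ± 0.11 (limma adjusted p = 0.332) and ILMN_1229994 at 0.32 ± 0.13 (adjusted p = 0.548), and Slc7a11, for which no size is given because it was undetected on 2.1 and 1.1. Thus a Nqo1 or Gclm call in 1 mouse number and not in the other does not show that the duplicate difference differed between them.

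Splitting each probe's sum of squares over the 16 arrays described the same contrast between members. Mouse number held 77.4% for Gstm1 ILMN_1228233, 73.5% for Gclm and 71.7% for Gsta3, against a median of 10.2% over all probes. Duplicate number within mouse number held 87.7% to 94.9% for the 3 Srxn1 probes and 73.1% for Hmox1, against a median of 25.8%, and 0.222% for Gstm1 ILMN_1228233. Nqo1 was divided between them, at 30.2% for mouse number and 40.4% for duplicate number. The genotype label was the largest named part for Prdx1, at 42.2%, and for the dimmer Gstm1 probe, at 31.2% with 58.6% residual. All probes had a median of 3.32% on that label. The dimmer Gstm1 probe was detected mainly on wild-type arrays, through which it passed the filter. Prdx1 also had 18.0% on agLDL, where all probes had a median of 2.30%.

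**Figure D3:**
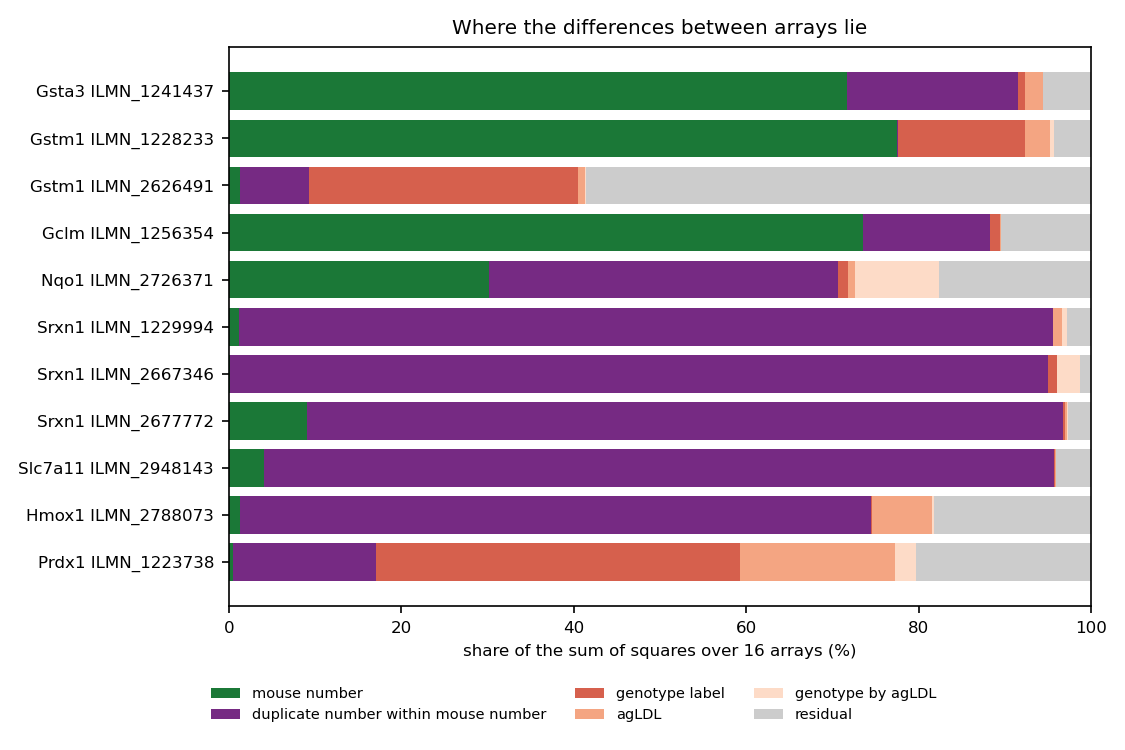
Share of the sum of squares over 16 arrays (horizontal axis, percent) that lies between mouse numbers, between duplicate numbers within them, between genotype labels, between treatments, in the genotype by agLDL term and in the residual, for each member probe. Mouse number takes most of the bar for Gsta3, Gclm and the brighter Gstm1 probe, duplicate number for Srxn1 and Hmox1, and the genotype label is the largest named part for Prdx1 and the dimmer Gstm1 probe. Slc7a11 was detected on 5 arrays, 4 of them numbered 2.2, so its bar follows from where it was measurable.

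Between genotype labels, the members with the largest differences were Gstm1 and Prdx1, a peroxiredoxin that reduces hydrogen peroxide, both lower in Ndst1-deficient macrophages. The main test averaged the 2 duplicate arrays of a mouse and treatment. Within a treatment it compared 2 mice with 2, and over both treatments it had 4 averaged values from 2 mice on each side, with the treatments of a mouse counted separately. In it, 0 of 11 member probes and 0% of all probes were called for each of the 7 labelled comparisons. Unadjusted p was under 0.05 for 2 member probes and 6.78% of all probes between genotype labels over both treatments. The 2 member probes were Prdx1 and the dimmer Gstm1 probe, which passed the filter mainly through wild-type arrays. Numbers recur in every group and arrays of the same number deviated together, so the number was also fitted as a block on the 16 arrays. With the block, 2 of 11 member probes were lower in Ndst1-deficient macrophages over both treatments and 0 higher, where 1.97% of all probes were called and 1.56% were lower. In untreated cells 0 members and 0.264% of all probes were called. The block counts the arrays of a mouse separately, although only 2 mice carry each label, so its p-values measure a partly technical spread. Same-numbered mice of the 2 labels are different animals, and the genotype label shares its slide.

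Gstm1 ILMN_1228233 read 10.19, 10.17, 9.34 and 9.41 in Ndst1-deficient macrophages with agLDL, against 10.41, 10.30, 9.81 and 9.73 in wild-type macrophages with agLDL, for the numbers 2.2, 2.1, 1.2 and 1.1. Untreated, it read 9.84, 10.15, 9.07 and 9.19 in Ndst1-deficient and 10.49, 10.38, 9.44 and 9.56 in wild-type macrophages. The Ndst1-deficient array was lower in all 8 pairs of the same number and treatment, although the groups overlapped across mouse numbers. The difference was -0.35, with a 95% interval of -1.09 to 0.40 over the averaged values (limma adjusted p = 0.979). With the number as a block the interval was -0.49 to -0.20 (limma adjusted p = 0.0210). The call was lost without the untreated wild-type array 2.2 (adjusted p = 0.0590) and without the agLDL-treated Ndst1-deficient array 2.1. The dimmer Gstm1 probe ILMN_2626491 differed by -0.39 ± 0.13 (limma adjusted p = 0.651, and 0.205 with the block). It was detected on 1 of 4 arrays of each Ndst1-deficient group, against 4 of 4 of each wild-type group. It therefore passed the filter mainly through the side where it was high, and its p-values cannot decide this difference. The arrays without detection had detection p up to 0.0351, near the threshold of 0.01, so the split in detection partly reflects that threshold. The Ndst1-deficient array was higher in 2 of 8 pairs, both numbered 2.1, by 0.58 with agLDL and 0.17 untreated.

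Prdx1 ILMN_1223738 read 13.67, 13.35, 13.81 and 13.55 in Ndst1-deficient macrophages with agLDL, against 13.93, 13.72, 13.85 and 13.84 in wild-type macrophages with agLDL. Untreated, it read 13.49, 13.46, 13.19 and 13.13 in Ndst1-deficient and 13.91, 13.51, 13.82 and 13.59 in wild-type macrophages. It was lower in the Ndst1-deficient array of all 8 pairs. Untreated cells of the 2 labels did not overlap, but only narrowly, with 13.49 as the highest Ndst1-deficient and 13.51 as the lowest wild-type value. The share of all probes without overlap in this comparison was not counted, so the separation is not set against a background. The difference was -0.31, with an interval of -0.55 to -0.08 over the averaged values (limma adjusted p = 0.648) and of -0.47 to -0.15 with the block (limma adjusted p = 0.0490). Over the 4 mouse means with the genotype label alone, a test added after seeing the data, the standard error was 0.10 for Prdx1 and 0.39 for the brighter Gstm1 probe, and limma called 0 probes, with 342 at an unadjusted p under 0.05. The blocked call was lost on leaving out any of 14 of the 16 arrays, with adjusted p up to 0.113, and with the mouse number as a block on the averaged values both genes were above the threshold, at 0.143 for Gstm1 and 0.213 for Prdx1. The other 8 tested member probes differed between -0.08 and 0.16 over both treatments.

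No member passed the threshold between agLDL and untreated cells under either genotype label, with or without the number as a block. Over both labels the member differences lay between -0.04 and 0.24 for agLDL minus untreated, and with the block their 95% intervals lay between -0.27 and 0.49. Prdx1 was the member with the most of its variance on agLDL, at 0.20 ± 0.10 and higher with agLDL in 7 of 8 pairs (limma adjusted p = 0.9997, and 0.488 with the block). Hmox1 differed by 0.18 (interval -0.06 to 0.42), higher with agLDL in 6 of 8 pairs. Nqo1 differed by 0.29 under the Ndst1-deficient label and by -0.17 under the wild-type label, and this interaction was 0.46 (interval -0.38 to 1.30). Over both labels the Gsta3 interval was -1.05 to 1.52 without the block, which leaves the shared mouse numbers in the spread, and -0.01 to 0.49 with it.

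**Figure D4:**
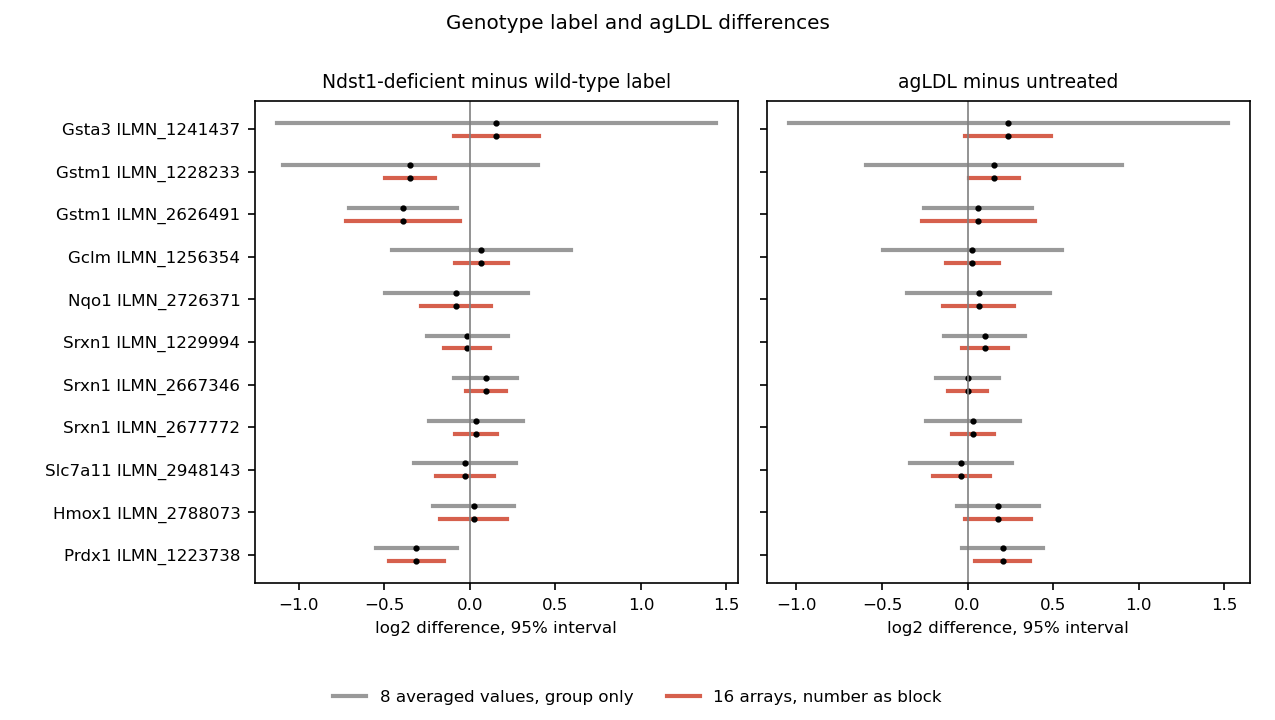
Log2 differences of the 11 member probes between genotype labels (left) and between agLDL and untreated cells (right), over both levels of the other factor, with 95% intervals. Grey bars come from 8 averaged values with the group alone, and red bars from 16 arrays with the number as a block. Intervals without 0 appear on the left for Prdx1 and the dimmer Gstm1 probe in both fits and for the brighter Gstm1 probe with the block. On the right they appear for Prdx1 and the brighter Gstm1 probe with the block. The adjusted p was under the threshold only on the left, for Prdx1 and the brighter Gstm1 probe with the block. The dimmer Gstm1 probe passed the filter mainly through wild-type arrays, where it was high.

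The wider pathway was read, with 1 probe per gene, from 8 lists of 99 further genes, of which 71 were tested, 19 had no probe that passed the filter and 9 had no probe. Between mouse numbers 18 of the 71 were higher and 8 lower, where 16.3% of all probes were higher and 30.9% differed in either direction, and the median difference was 0.08, against 0.01 over all genes. For 2.2 against 2.1 the counts were 10 higher and 13 lower, where 34.2% of all probes differed, and for 1.2 against 1.1 they were 7 and 9, where 26.1% differed. These duplicate counts are below the share over all probes, and the counts of each list have the same shares as their background. No list gene was called in the interaction or in a labelled comparison without the block. With the block, 3 of the 71 list genes were called between genotype labels over both treatments, all lower, where 1.97% of all probes were called and 1.56% were lower. Named here as the only 3 and chosen after their values were seen, they were the theta-class transferase Gstt2 with a difference of -0.78, Txnip with -0.38 and the transketolase Tkt with -0.66 (limma adjusted p of 0.00918, 0.0192 and 0.0182). The block counts the arrays of a mouse separately, and the genotype label shares its slide.

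Among 10 tested regulators, 1 was higher and 1 lower between mouse numbers, fewer than the 30.9% of all probes that differed, so the values are given for single genes only. Nfe2l2, the NRF2 gene itself, was 0.25 ± 0.09 higher on mouse number 2 (limma adjusted p = 0.0428). Keap1, which restrains NRF2, was lower there, with a difference of -0.45 ± 0.07 (adjusted p = 0.000275). Bach1, the repressor, differed by 0.16 ± 0.09 between mouse numbers (adjusted p = 0.171). Between duplicates Bach1 fell by 0.48 for 2.2 against 2.1 (adjusted p = 0.00762) and by 0.68 for 1.2 against 1.1 (adjusted p = 0.00124). The other regulator called in both, Btrc, which encodes a subunit of a ubiquitin ligase that also targets NRF2, fell by 0.53 and by 0.39.

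Of 13 tested glutathione transferases outside the members, 5 were higher on mouse number 2 and 0 lower, where 16.3% of all probes were higher, with the microsomal Mgst1 (0.44 ± 0.08), the pi-class Gstp1 (0.39 ± 0.11), Mgst3 (0.27 ± 0.07) and the omega-class Gsto1 (0.26 ± 0.07). Of 8 genes of glutathione synthesis and recycling, 1 was higher, the 5-oxoprolinase Oplah (0.67 ± 0.10), and 2 were lower, the glutaredoxin Glrx (-0.55 ± 0.08) and Ggct (-0.41 ± 0.09), which releases 5-oxoproline from gamma-glutamyl dipeptides. Slc3a2, the heavy chain that partners xCT, differed by -0.29 ± 0.15 (limma adjusted p = 0.173). Of 10 peroxidases, superoxide dismutases and catalase, 1 was higher, catalase itself (Cat, 0.76 ± 0.11), and 2 lower, Gpx7 (-0.35 ± 0.09) and the endoplasmic reticulum peroxiredoxin Prdx4 (-0.25 ± 0.05), while Sod1 differed by 0.17 ± 0.08 (adjusted p = 0.106). Of 8 thioredoxin system genes, 2 were higher, Txnrd3 (0.33 ± 0.08) and the methionine sulfoxide reductase Msrb1 (0.26 ± 0.09), and Txnrd2 and Txnip differed by 0.19 ± 0.08 and 0.18 ± 0.07 without a call. Txnip, which binds and inhibits thioredoxin, fell between duplicates by 0.93 for 2.2 against 2.1 and by 0.87 for 1.2 against 1.1 (limma adjusted p up to 6.92e-05). Oplah was detected on 7 arrays of mouse number 2 and 1 of mouse number 1, and Gpx7 on 1 and 6, so both passed the filter mainly through the side where they were high.

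Idh1, the cytosolic NADP-dependent isocitrate dehydrogenase, was the 1 of 3 NADPH suppliers that was higher (0.56 ± 0.06). Of 9 heme and iron genes, 4 were higher and 2 lower, among them the heme transporter Slc48a1 (0.33 ± 0.06), Hmox2, the constitutive heme oxygenase (-0.33 ± 0.07), the porphyrin transporter Abcb6 (0.25 ± 0.08) and the biliverdin reductase Blvrb (0.21 ± 0.06). Of 10 other detoxifying genes, 3 were higher and 1 lower: the epoxide hydrolase Ephx1 (0.88 ± 0.10), the carbonyl reductase Cbr3 (0.51 ± 0.09), the aldehyde dehydrogenase Aldh2 (0.28 ± 0.06) and the quinone reductase Nqo2 (-0.28 ± 0.07). Ephx1 and Cbr3 moved the other way between duplicates, with -0.77 and -0.38 for 2.2 against 2.1 and -0.64 and -0.46 for 1.2 against 1.1, all 4 called by limma. Akr1b8, an aldo-keto reductase chosen after its values were seen, was higher on duplicate 2 by 1.08 for 2.2 against 2.1 and by 1.03 for 1.2 against 1.1.

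**Figure D5:**
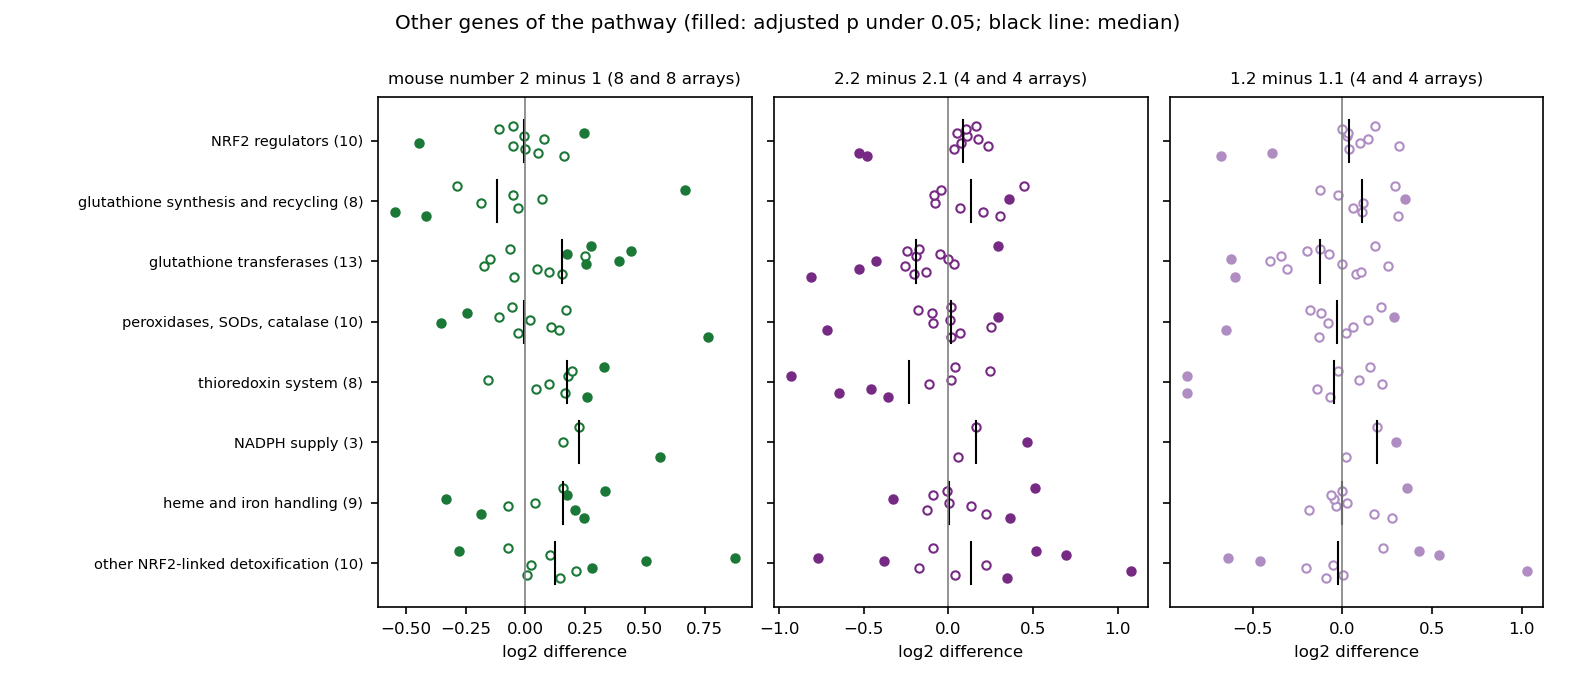
Log2 differences (horizontal axes) of 71 further pathway genes in 8 lists (vertical axis, number tested in parentheses), for mouse number 2 minus 1, 2.2 minus 2.1 and 1.2 minus 1.1. Filled points had an adjusted p under 0.05 and the black line is the list's median. Glutathione transferases have 5 higher and 0 lower genes between mouse numbers, and called genes lie on both sides in most other lists.

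Each member was set against 7074 other named genes by the Pearson correlation of log2 values over the 16 arrays, which share their numbers, so these values only describe likeness. The nearest genes to Gsta3 were Col18a1 (0.95) and Elovl5 (0.92), those to Gstm1 were Cxcr4 (0.93) and 1700037H04Rik (0.92), and those to Gclm were Matk (0.96) and Ncaph2 (0.93). For Srxn1 they were Eno2 (0.97) and Pgp (0.97), for Slc7a11 Apbb2 (0.95) and Igf2r (0.95), and for Hmox1 Vcl (0.94) and Ddx54 (0.91). Nqo1 was nearest to Ppm1b (0.88) and Mgat4b (0.86), and Prdx1 to Abhd16a (0.93) and Pgls (0.90). No gene appeared as the nearest of more than 1 member.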

How the data were processed

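Biotin-labelled total RNA was hybridised to Illumina mouse arrays of 1 colour, per the labels. In the deposited table each probe has, for every array, a mean bead intensity that was not background-subtracted or normalized and a detection p-value, per the file headers. The submitters' processing notes name GenomeStudio, with neither a version nor a genome build given in those sources. As an alternative, series-matrix values were used, which the authors deposited as linear intensities with values below 0 and a processing not stated, and which were floored at 16 before log2.

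The neqc function of limma 3.58.1 (R 4.3.3) corrected background from the 798 negative controls that the deposited detection p-values imply, with an offset of 16, followed by quantile normalization and log2. Of 25697 probes, 23978 had 1 gene symbol and 1719 had none in the platform annotation, and the symbols of all 16 member probes matched RefSeq. Probes with a detection p under 0.01 on at least 4 arrays were fitted together (lmFit, contrasts.fit, eBayes) with Benjamini-Hochberg adjustment at 0.05 over all 10224. Number comparisons used 16 arrays with group and number as terms (9 residual degrees of freedom), and labelled comparisons 8 averaged values with the group alone (4 degrees of freedom). The mouse number comparison over mouse means had genotype label and mouse number as terms (1 degree of freedom). Fits were tested on simulated data. Where 1 side of a comparison never detected a probe, its fold is a bound, set by the lowest signal detected on each array or the probe's own value if larger.

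Numbers come from the labels. All 24 pairs of arrays with the same number in different groups correlated in their deviations from the group means, between 0.445 and 0.814, so the number was also used as a block, and over the averaged values the 12 pairs lay between 0.555 and 0.750. Alternatives were the series-matrix values, no background correction, median scaling, other detection filters, 1 probe per gene, no group term, averaged or mouse-level values, the blocks and each array left out. The number of arrays limits the precision. The members, lists, tests and the rule for named genes (every member probe, and up to 4 genes per list by the size of the mouse difference, with Nfe2l2, Keap1 and Bach1) were chosen with earlier results of these data known.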

Additional observations from a re-analysis of the deposited data

Results flagged for a closer look

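Among 88 sets of 4 arrays, made from 11 member probes in the 4 groups and the 4 numbers, 2 held an array far from the other 3 by Dixon's test, and chance gives about 4.4. Prdx1 ILMN_1223738 read 13.19 on the untreated Ndst1-deficient array 1.2, against 13.81 to 13.85 on the other arrays numbered 1.2. Srxn1 ILMN_1229994 read 7.63 on the untreated Ndst1-deficient array 2.1, against 7.67 to 7.68 on the other arrays numbered 2.1, a set with a very narrow range. Outside the comparisons, the second Prdx1 probe, ILMN_2989706, which did not pass the filter, was detected on 2 arrays, both of agLDL-treated Ndst1-deficient cells.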

How the results depend on the processing

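Over settings other than leaving out 1 array, 861 of 869 values of member probes stayed on their side of the threshold, 6 lost a call, 2 gained one and 0 called values changed sign. Leaving out 1 array kept 1916 of 1936 on their side, with 18 calls lost and 2 gained. When only probes detected on all 16 arrays were tested, 3 member probes were called between mouse numbers and 4 for 1.2 against 1.1, with 7 member probes tested in place of 11. Over the 4 mouse means, 2099 probes were called between mouse numbers, against 3158 over arrays.

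The interaction of mouse and duplicate number called 8 probes, 32 without background correction and 2 among probes detected on all arrays. It called 0 to 29 when 1 array was left out: 0 without the arrays Ndst1-deficient agLDL 2.2, wild-type agLDL 1.2 or untreated wild-type 2.1, 4 without untreated wild-type 2.2, 5 without untreated Ndst1-deficient 1.1, 14 without Ndst1-deficient agLDL 1.1 and 29 without wild-type agLDL 1.1. Members called there were 0 to 1, the 1 being Slc7a11 without the untreated Ndst1-deficient array 1.2. That array was the only one numbered 1.2 that detected Slc7a11, which was also undetected on 2.1 and 1.1. Without it the interaction rests on undetected values in all numbers but 2.2, so no p-value is given.

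With the number as a replicate block, the genotype difference over both treatments called 201 probes and 2 members, the untreated one 27 probes, the agLDL-treated one 1, and agLDL in Ndst1-deficient cells 1. With the mouse number as a block on the averaged values the untreated genotype difference called 1. Added after seeing the data, the blocked genotype fit called 100 to 239 probes when 1 array was left out, 168 with the series-matrix values, 371 without background correction and 134 with median scaling. Prdx1 lost its call with the series-matrix values (limma adjusted p = 0.0684) and with median scaling (0.0919), and Gstm1 kept it under all 3 (0.00509 to 0.0364). The causes were not tested. Probes near background, among them Nqo1, Slc7a11 and the dimmer Gstm1 probe, limit what their sizes show.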
